A study of Mus musculus with 64 samples.

Results

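Cells that transcribed the Foxp3 locus without making functional Foxp3 protein were sorted in an active and a resting state, and the RNA of the 2 states was compared gene by gene. The comparison used 20 of the 64 mouse RNA sequencing libraries of the study, chosen by their titles: 10 active and 10 resting libraries that the study calls minusFoxp3, with 2 of each state on each of days 0, 3, 7, 14 and 28. All 20 came from spleen and lymph nodes of adult mice whose genotype is given as Foxp3-LSLCD4-WT. Foxp3 LSL is a reversible reporter-null allele, in which a Thy1.1 reporter and a STOP cassette flanked by loxP sites interrupt the gene, and these mice carried no CreERT2 that could remove the cassette. The states were gated by surface proteins that change with activation, among them CD44, low on resting and high on active cells. Day 0 mice had no treatment, and the mice of the later days had received 4-hydroxytamoxifen 3, 7, 14 or 28 days earlier. The mice were heterozygous females, whose other X chromosome carries a working Foxp3 allele, so the sorted Thy1.1+ cells (Treg wannabe cells in the labels) had developed beside functional regulatory T (Treg) cells. For one comparison, 4 libraries of untreated Foxp3GFP mice (2 active and 2 resting Treg cells, called GFP Treg cells here) served as cells with functional Foxp3. The study describes 2 independent biological replicates at each time point, and neither it nor the labels say whether an active and a resting library came from the same mouse.

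Foxp3 is the transcription factor that defines Treg cells, the CD4+ T cells that restrain immune responses. T cells that have not met antigen circulate through lymphoid organs. After activation they gain the adhesion receptor CD44, divide, and take up receptors, cytokines and transcription factors of effector programs such as Th1, Th2 and Th17. Treg cells have a resting and an activated state set apart by the same surface proteins. The comparison asked which genes separate these states when functional Foxp3 is missing, on how many of the 5 days, and where the difference departed from that in GFP Treg cells.

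The 20 libraries held between 42746339 and 57049049 counted read pairs, and between 33387 and 35949 genes with at least 1 read pair in a library. Levels are given as CPM, a library's count of a gene as a share of its total, scaled by TMM library factors and compare libraries for 1 gene, not genes with each other. Defining markers of CD4+ T cells were present in every library: Cd4 lay between 463 and 1042 CPM, Cd3e between 691 and 926 CPM and Trac between 1869 and 2255 CPM. On the first principal component, which held 46.5% of the variance of log2 CPM, the 10 active libraries lay apart from the 10 resting ones. On the second, with 8.22%, the library numbered 1 lay above the library numbered 2 of the same state and day in all 10 pairs, although the numbers overlapped across days.

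Read pairs were assigned to Foxp3 in both states. Active libraries ranged from 43.5 to 65.5 CPM with a median of 56.3, and resting libraries from 47.6 to 79.1 CPM with a median of 64.5. The groups overlapped, and the log2 fold change of -0.23 (SE 0.09) had an adjusted p of 0.057 in edgeR's quasi-likelihood test with Benjamini-Hochberg adjustment, short of the threshold of 0.05. With the replicate number within each day as a block, the same fold change had an adjusted p of 0.0314 and passed. Over the 32 alternatives the fold change lay between -0.28 and -0.12 and the adjusted p between 0.0268 and 0.347, with 9 of them past the threshold. The Foxp3 gene (GRCm39, X chromosome, 7439883 to 7461484, plus strand) shares exon bases with 4 annotated neighbours, and read pairs in shared exons were not counted for any gene.

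The sort itself set a difference in Cd44, which lay between 162 and 247 CPM in active and between 62.2 and 99.2 CPM in resting libraries. These values describe the gate and are not a result.

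Active and resting cells differed in 7987 of 20834 genes tested (38.3%), of which 4098 were higher (19.7%) and 3889 lower (18.7%) in active cells. A fold change of at least 2 beside the call was found for 2939 genes (14.1%), with 1845 higher (8.86%) and 1094 lower (5.25%). All 10 active libraries lay above or below all 10 resting libraries for 2209 genes (10.6%), 1313 upward (6.3%) and 896 downward (4.3%). The median log2 fold change over all genes tested was -0.03. In these bulk libraries a gene expressed by fewer cells cannot be told apart from less RNA per cell.

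**Figure D1:**
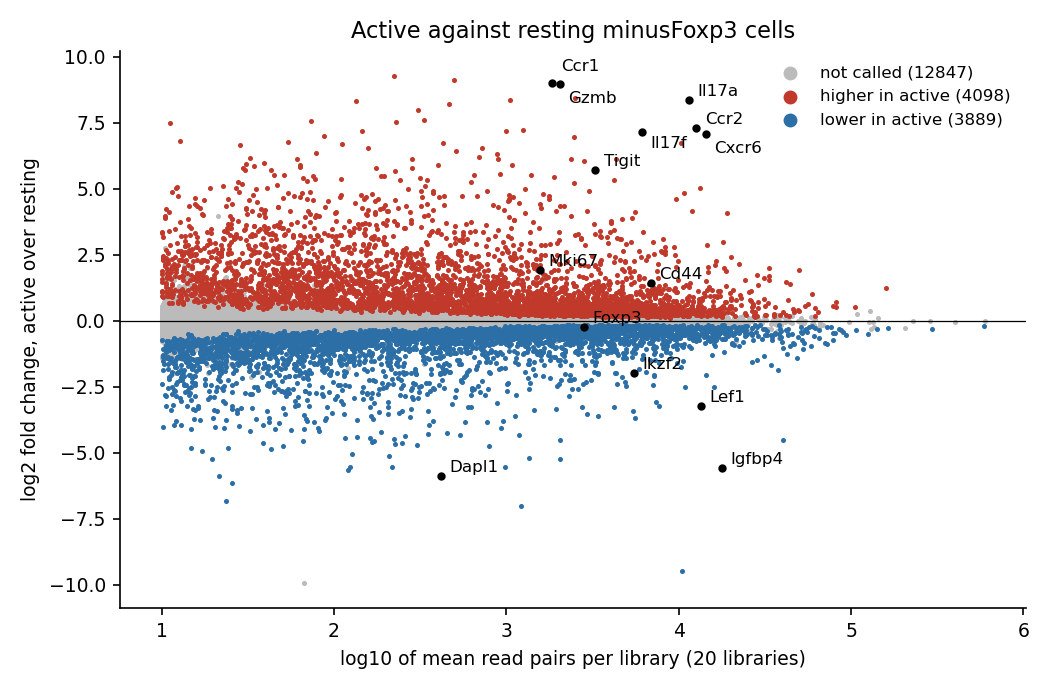
Each point is 1 of the 20834 genes tested in the 20 minusFoxp3 libraries, with the log10 of its mean read pairs per library on the x axis and its log2 fold change, active over resting, on the y axis. Red points are the 4098 genes higher in active cells and blue points the 3889 lower ones. Black points carry the names of genes marked for orientation, gray points are genes not called, and fitted values run from -9.91 to 9.28 over all genes tested.

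The cytokine genes Il17a and Il17f gave one of the clearest contrasts. They encode the signature cytokines of Th17 cells and lie 42.65 kb apart on chromosome 1 (GRCm39, Il17a at 20801129 to 20804720 on the plus strand and Il17f at 20847370 to 20860841 on the minus strand). Il17a lay between 292 and 766 CPM in active libraries (median 491) and between 0.260 and 2.69 CPM in resting libraries (median 1.53). The lowest active library stood far above the highest resting one, and the log2 fold change was 8.36 (SE 0.32, adjusted p 5.8e-13). Il17f lay between 109 and 376 CPM in active (median 253) and between 0.745 and 3.27 CPM in resting libraries (median 1.70), with a log2 fold change of 7.17 (SE 0.27, adjusted p 4.5e-13).

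The promoters of this pair, and that of Dapl1, the naive T cell gene with the largest fall among the genes named, are shown because they belong to the genes that differed most and moved in opposite directions. Each is the 250 bases upstream of the RefSeq transcription start (GRCm38.p6, an older build than that of the counts), 5′ to 3′ along the gene. Capitals mark the matches to the 6 motifs searched on both strands: TGANTCA for AP-1, TGTGGT for RUNX, TCACACC for T-box, CTTTGAA for TCF/LEF, TGTTTAC for forkhead and CCNCCCC for KLF/SP factors.
Il17a, chr1:20730655-20730904, plus strand: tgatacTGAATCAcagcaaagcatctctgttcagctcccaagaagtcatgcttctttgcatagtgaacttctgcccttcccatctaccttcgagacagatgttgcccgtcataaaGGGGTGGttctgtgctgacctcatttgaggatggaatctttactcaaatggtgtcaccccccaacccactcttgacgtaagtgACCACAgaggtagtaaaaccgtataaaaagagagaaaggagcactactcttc
Il17f, chr1:20784271-20784520, minus strand: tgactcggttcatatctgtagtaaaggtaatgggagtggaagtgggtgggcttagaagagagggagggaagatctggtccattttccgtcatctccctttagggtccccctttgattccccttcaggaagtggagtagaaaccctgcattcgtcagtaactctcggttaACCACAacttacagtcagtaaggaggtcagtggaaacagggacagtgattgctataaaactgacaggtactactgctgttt
Dapl1, chr2:59484403-59484652, plus strand: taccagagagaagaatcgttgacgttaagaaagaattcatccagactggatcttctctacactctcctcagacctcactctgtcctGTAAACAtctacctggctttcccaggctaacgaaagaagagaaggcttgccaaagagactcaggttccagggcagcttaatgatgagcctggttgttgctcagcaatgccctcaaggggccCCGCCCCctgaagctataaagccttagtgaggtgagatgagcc
The Il17a window held an AP-1, a RUNX and a KLF/SP match, the Il17f window a RUNX match, and the Dapl1 window a forkhead and a KLF/SP match.

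Such matches also stood in promoters of other genes, at shares that differed widely by motif. The RUNX letters stood in 11.5% of the 15586 promoters of tested genes, in 12.8% of the 1500 promoters of genes at least 2-fold higher in active cells and in 11.5% of the 871 promoters of genes at least 2-fold lower. The AP-1 letters stood in 4.77% of the tested, 6.33% of the higher and 6.09% of the lower set, and the forkhead letters in 2.29%, 2.67% and 2.64%. T-box letters stood in 3.00%, 2.53% and 4.25%, TCF/LEF letters in 3.45%, 3.53% and 4.59%, and KLF/SP letters in 54.8%, 56.2% and 55.9%. A match describes letters in a window and shows no binding.

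The text names the 15 called genes in each direction with the largest fold changes among those with at least 100 mean counts and no overlap between states, so their lack of overlap is part of the choice. Chemokine receptors were among the rises named in this way. Ccr1, a receptor for inflammatory chemokines, lay between 31.4 and 115 CPM in active libraries and between 0.0430 and 0.391 CPM in resting ones (log2 fold change 9.01, SE 0.26). Ccr2, best known from monocytes and effector T cells, lay between 269 and 687 CPM against 1.86 to 6.40 CPM (7.31, SE 0.27). Cxcr6, which guides T cells into liver, lung and gut, lay between 326 and 791 CPM against 1.44 to 8.31 CPM (7.08, SE 0.27). All 3 sit in one stretch of chromosome 9 in the order Cxcr6, Ccr1, Ccr2, with gaps of 121 kb and 133 kb, a neighbourhood looked up after their values were seen.

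Of the 30 homing receptors and integrins tested, 20 rose and 6 fell, with a median log2 fold change of 0.85. The shares over all genes tested were 19.7% higher and 18.7% lower. Itgae, the CD103 integrin chain that binds epithelial E-cadherin, lay between 39.4 and 120 CPM in active and between 0.559 and 5.00 CPM in resting libraries (4.73, SE 0.30). Several receptors that guide T cells into and through lymphoid organs fell. Ccr7, the receptor for lymph node entry, went from 1088 to 1392 CPM in resting down to 213 to 491 CPM in active libraries (-1.85, SE 0.11). S1pr1, the receptor for lymph node exit, fell by 1.32 on the log2 scale (SE 0.09) and Cxcr5, the follicle homing receptor, fell by 1.36 (SE 0.24). Itgb8, a chain of the integrin that activates TGF-beta, fell by 2.75 (SE 0.29), from between 2.73 and 7.52 CPM to between 0.249 and 2.07 CPM.

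Several of the other steepest rises were in genes of cytotoxic cells and inhibitory receptors. Gzmb, the gene of the killer protease granzyme B, lay between 35.7 and 196 CPM in active libraries (median 85.8) and between 0 and 1.17 CPM in resting libraries (median 0.0193), with a log2 fold change of 8.97 (SE 0.62). Havcr2, which encodes the inhibitory receptor Tim-3, lay between 22.6 and 56.7 CPM in active and between 0 and 0.667 CPM in resting libraries (8.37, SE 0.50). Pvrig, an inhibitory receptor of the CD226 network, lay between 11.2 and 32.2 CPM against 0 to 0.199 CPM (9.14, SE 0.45).

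Other genes of the 15 with the largest rises by this rule had different roles. Blk, a Src family kinase known from B cells and from IL-17-producing T cells, lay between 44.3 and 197 CPM in active and between 0 and 1.03 CPM in resting libraries (8.46, SE 0.44). Its neighbour Fam167a, 19.4 kb away on chromosome 14, had a log2 fold change of 8.31 (SE 0.38). Gfra4, a co-receptor of the GDNF family, and the metalloprotease gene Adam33 lie 7503 bases apart on chromosome 2 and had log2 fold changes of 9.28 (SE 0.47) and 8.20 (SE 0.47). The neuromedin U receptor gene Nmur1 (7.55), the integrin gene Itgb5 (7.18), the RNA-binding protein gene Rbm24 (7.25), Glyat (7.63) and Serinc2 (7.20) completed the 15. Over the 10 resting libraries Gfra4 had 6 read pairs, Fam167a 7 and Pvrig 16, so the size of these fold changes depends on the prior count of the fit.

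In the opposite direction, the same rule named genes of several roles. Igfbp4, a binding protein of insulin-like growth factors that is high in naive T cells, lay between 3.98 and 29.1 CPM in active libraries (median 16.5) and between 551 and 1190 CPM in resting libraries (median 642), a log2 fold change of -5.58 (SE 0.33). Dapl1 lay between 0.0403 and 1.15 CPM in active and between 11.6 and 25.4 CPM in resting libraries (-5.87, SE 0.34). Ly6c1, a surface marker of some resting memory and naive T cells, lay between 0.611 and 4.83 CPM against 45.2 to 110 CPM (-5.22, SE 0.31). Gsta4, a glutathione transferase, lay between 0.321 and 2.01 CPM against 28.6 to 56.8 CPM (-5.53, SE 0.27).

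Selp, the gene of P-selectin, had a log2 fold change of -5.53 (SE 0.40). Drc1 (-5.52), Lad1 (-5.21), Dapk1 (-5.11), Arhgap20 (-4.73), Pla2g4f (-4.71), Sorcs2 (-4.67), the kinase gene Pak1 (-4.61), the adenylyl cyclase gene Adcy6 (-4.59) and the AMP deaminase gene Ampd1 (-4.56) were named by the same rule. Their median levels in active libraries were at most 1.31 CPM, and those in resting libraries ranged from 4.62 CPM for Drc1 to 56.3 CPM for Lad1.

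**Figure D2:**
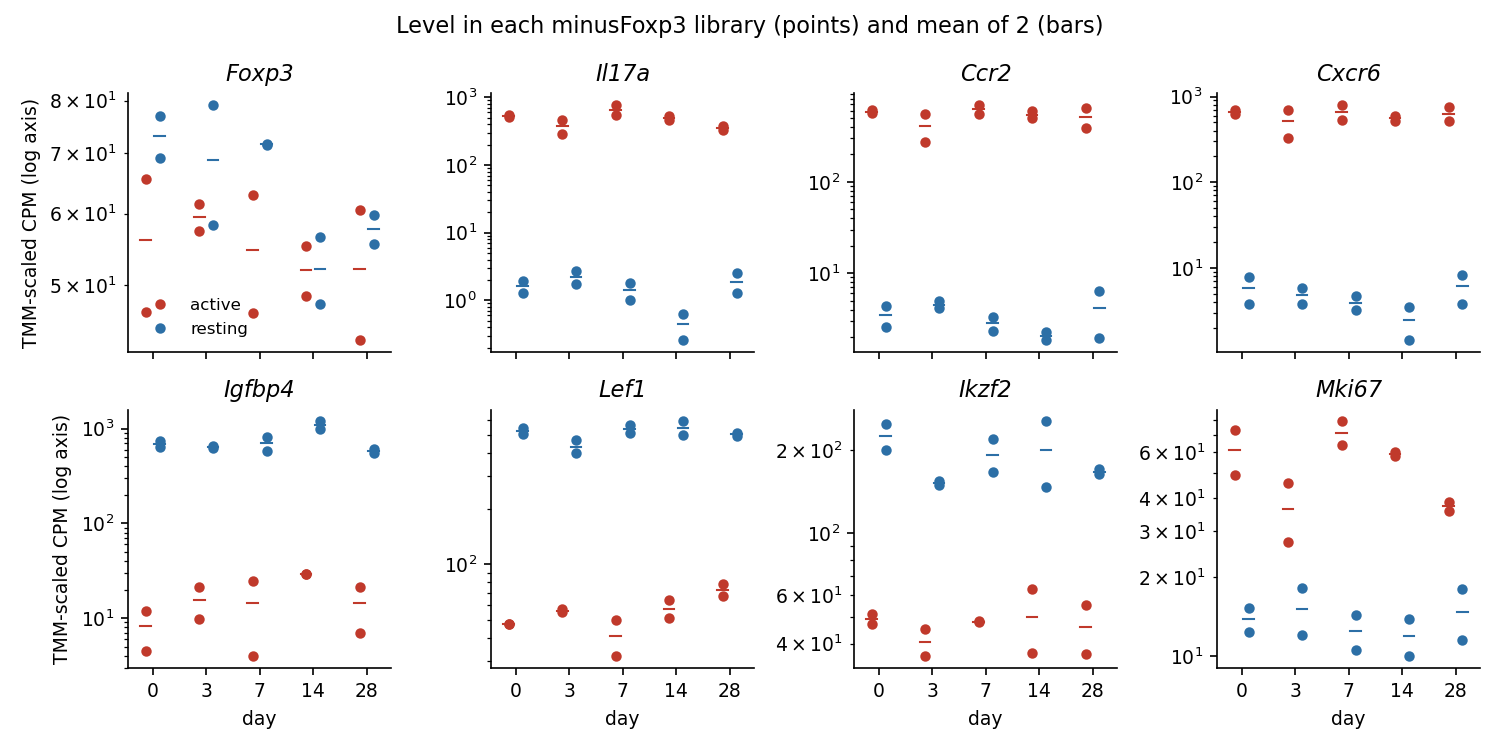
Points are the TMM-scaled CPM of 8 genes in each of the 20 minusFoxp3 libraries on a log axis, by day and state, and bars the mean of the 2 libraries. Foxp3 overlaps between states, while Il17a, Ccr2, Cxcr6 and Mki67 lie higher and Igfbp4, Lef1 and Ikzf2 lower in every active library than in any resting one.

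All 15 tested genes of the Th17 program rose in active cells, with a median log2 fold change of 4.18 against -0.03 over all genes. Beside Il17a and Il17f, Ltb4r1, the receptor for the chemoattractant leukotriene B4, lay between 85.3 and 162 CPM in active and between 0.301 and 4.19 CPM in resting libraries (6.06, SE 0.35). Il23r, the receptor chain through which IL-23 sustains Th17 cells, lay between 25.5 and 59.5 CPM against 0.236 to 3.98 CPM (4.77, SE 0.38). The chemokine gene Ccl20 lay between 406 and 1199 CPM against 40.1 to 148 CPM (3.00, SE 0.25). Transcription factor genes of this program, named after their values were seen, also rose: Rora by a log2 fold change of 2.99, Ahr by 2.53 and Maf by 2.01.

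Other helper programs moved in part. Of 14 Th1 genes, 10 rose and 2 fell, beside 19.7% higher and 18.7% lower over all genes tested. Ifng, the interferon-gamma gene, lay between 9.98 and 72.9 CPM in active and between 0.684 and 3.47 CPM in resting libraries (3.73, SE 0.36), and the IL-18 receptor chain Il18rap rose by a log2 fold change of 3.92. The Th1 regulator Tbx21 rose less (1.04), while the related Eomes fell by 3.42 on the log2 scale, both named after their values were seen. Of 10 Th2 genes, 8 rose and 1 fell, beside the same shares over all genes tested. Il4 lay between 22.4 and 73.2 CPM against 1.91 to 5.31 CPM (3.21, SE 0.25), and Ecm1 fell by 2.42 (SE 0.11).

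Of 14 genes of follicular helper cells, 6 rose and 5 fell, beside 19.7% higher and 18.7% lower over all genes tested. Il21, the cytokine that supports germinal centers, lay between 75.0 and 150 CPM in active and between 4.30 and 21.7 CPM in resting libraries (3.31, SE 0.25). Bcl6, the defining transcription factor of these cells, lay between 3.04 and 8.51 CPM against 8.31 to 20.1 CPM (-1.01, SE 0.16) so that the groups met at their edges. The list therefore split, with the costimulator gene Icos and the transcription factor genes Tox2 and Maf also higher, and Cxcr5, Il6st and Cd200 also lower.

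Among 24 cytokine genes, 16 rose and 2 fell. After the Il17 pair the largest rises were in Il22 (4.68, SE 0.66), whose product acts on epithelia, and in Il10 (4.35, SE 0.33), which encodes a suppressive cytokine and lay between 64.0 and 128 CPM against 0.731 to 9.90 CPM. The lymphotoxin genes Lta (-1.18) and Ltb (-0.56) fell. Il2, the T cell growth factor gene, had a log2 fold change of 0.10 and did not pass the test. Of 10 chemokine genes, 7 rose, led by the neutrophil attractant Cxcl3 (5.37, SE 0.40), and 1 fell. The 7 became 4 without active day 28 replicate 2, with the libraries numbered 1 alone, and without the 5 active libraries highest in the dendritic cell gene Siglech (given with the cell type markers).

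Of 26 transcription factor genes of effector cells, 19 rose and 3 fell, or 20 and 5 with the replicate block. Zeb2, a transcriptional repressor found in terminal effector cells, lay between 19.2 and 50.9 CPM in active and between 0.838 and 2.64 CPM in resting libraries (4.39, SE 0.24). Prdm1, the gene of Blimp-1, which marks effector Treg and other effector cells, lay between 88.0 and 203 CPM against 8.02 to 15.8 CPM (3.71, SE 0.16). Tox2 (3.16, SE 0.22) and Runx2 (3.15, SE 0.17) followed. Beside Bcl6 and Eomes, Myb fell by 0.53 (SE 0.12).

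The naive and quiescence genes moved the other way, with 21 of 26 lower and 1 higher in active cells and a median of -1.10. Lef1, a Wnt pathway factor of naive T cells, lay between 31.9 and 78.1 CPM in active and between 398 and 591 CPM in resting libraries (-3.24, SE 0.12). Treml2 lay between 5.21 and 9.82 CPM against 58.5 to 90.3 CPM (-3.35, SE 0.11). The 1 gene that rose was Il7r, the IL-7 receptor chain that sustains resting and memory T cells, at 332 to 762 CPM against 98.3 to 276 CPM (1.29, SE 0.14). Btg1, Btg2, Ets1 and Slfn2 did not pass the test.

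Genes of the Treg signature split between states although both states lacked functional Foxp3. Of 24 tested, 14 rose and 8 fell, beside 19.7% higher and 18.7% lower over all genes tested. Foxp3 and Il2ra did not pass the test. Il2ra, the IL-2 receptor alpha chain, had a log2 fold change of 0.08. The largest rise was in Tigit, an inhibitory receptor of effector Treg cells, at 80.6 to 291 CPM in active and 0.279 to 6.32 CPM in resting libraries (5.73, SE 0.37). Itgae, Il10 and the actin-capping gene Capg (1.93, SE 0.10) followed.

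The members that fell were led by Itgb8 and by Lrrc32, which presents latent TGF-beta and lay between 9.83 and 24.1 CPM against 49.3 to 90.1 CPM (-2.23, SE 0.15). Gpr83 lay between 11.9 and 32.3 CPM against 49.4 to 136 CPM (-2.19, SE 0.16). Ikzf2, the gene of Helios, lay between 36.0 and 62.8 CPM against 147 to 253 CPM (-1.99, SE 0.12). None of these 3 genes overlapped between states.

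Inhibitory and costimulatory receptors split almost evenly, with 11 of 25 higher and 10 lower and a median of 0.15. Over all genes tested, 19.7% were higher and 18.7% lower. Beside Havcr2 and Tigit, Lag3 lay between 88.3 and 159 CPM in active and between 5.18 and 23.0 CPM in resting libraries (3.28, SE 0.21), and Icos lay between 564 and 1131 CPM against 117 to 264 CPM (2.16, SE 0.16). The genes that fell included Tnfrsf9, which encodes 4-1BB, at 14.1 to 27.2 CPM against 72.9 to 141 CPM (-2.30, SE 0.12). Cd81 (-2.41, SE 0.22), Cd160 (-2.22, SE 0.19) and Cd27 (-2.06, SE 0.10) fell as well. Thus 4-1BB and CD27, both costimulatory members of the TNF receptor family, were lower in the state called active.

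Of 18 cytotoxic granule and killer lectin genes, 8 rose and 5 fell, beside 19.7% higher and 18.7% lower over all genes tested. Beside Gzmb, the protease inhibitor gene Serpina3g lay between 146 and 208 CPM in active and between 8.15 and 36.9 CPM in resting libraries (3.10, SE 0.17), and Klrk1, the gene of the NKG2D receptor, rose by a log2 fold change of 2.52 (SE 0.23). Prf1, the gene of perforin, through which granzymes enter target cells, moved the other way, at 0.547 to 2.62 CPM against 7.03 to 17.9 CPM (-2.94, SE 0.25). Serpinb6b (-0.80), Serpinb9 (-0.79) and Nkg7 (-0.68) fell too.

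Cell cycle genes were higher in active cells for 32 of 35 tested, with a median log2 fold change of 1.19. Mki67, the gene of the proliferation marker Ki-67, lay between 27.2 and 78.7 CPM in active and between 9.99 and 18.1 CPM in resting libraries (1.92, SE 0.18). Rrm2, a subunit of ribonucleotide reductase, rose by a log2 fold change of 1.61 (SE 0.23), the spindle checkpoint kinase gene Bub1 by 1.60 (SE 0.30) and E2f8 by 1.52 (SE 0.28). The replication genes Mcm2, Mcm4 and Pcna did not pass the test, with log2 fold changes of 0.33, 0.22 and -0.20.

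**Figure D3:**
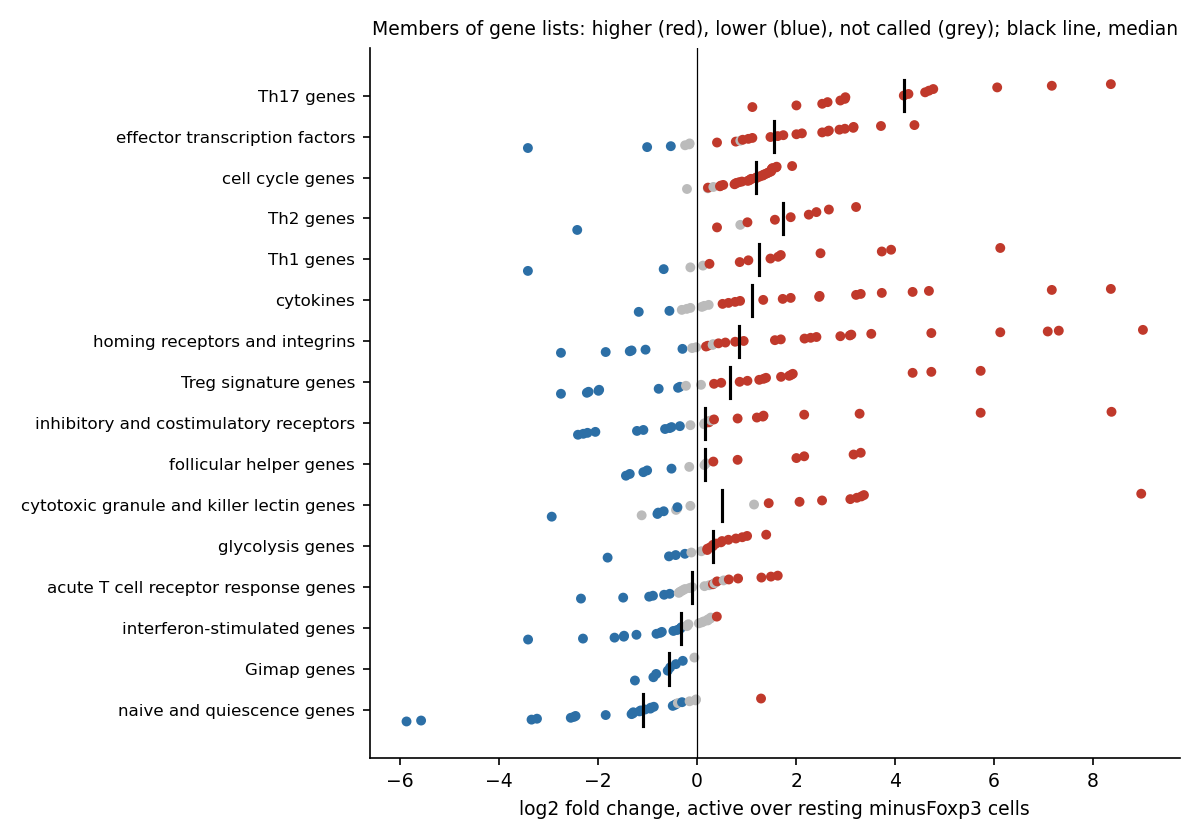
Each point is 1 gene of a list, placed by its log2 fold change, active over resting minusFoxp3 cells, on the x axis, with 1 row for each list and colors for genes called higher, called lower or not called. All 15 Th17 genes lie to the right of 0, and the naive and Gimap lists lie mostly to the left.

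Genes induced within hours of T cell receptor stimulation numbered 7 of 25 higher and 6 lower, beside 19.7% higher and 18.7% lower over all genes tested. With the replicate block they numbered 12 and 11, in a fit that called 4643 of 20834 genes higher and 4583 lower. The transcription factor genes Irf4 (1.63, SE 0.14), Fosl2 (1.49, SE 0.18) and Egr2 (0.83, SE 0.12) rose. Nr4a2, an orphan receptor gene induced by antigen, fell by 2.35 (SE 0.43) and Nr4a1, which encodes Nur77, fell by 0.97 (SE 0.36, adjusted p 0.042). Both overlapped between states and varied with library number. Nr4a1 lay between 47.2 and 208 CPM in active libraries, and in resting ones at 101 to 139 CPM (numbered 1) and 184 to 473 CPM (numbered 2). Nr4a2 lay between 0.301 and 4.12 CPM in active libraries, and in resting ones at 3.12 to 6.02 CPM (numbered 1) and 11.5 to 23.2 CPM (numbered 2). The phosphatase gene Dusp2 lay between 196 and 414 CPM in active and between 694 and 1064 CPM in resting libraries (-1.49, SE 0.14). Of 25 proximal receptor signaling genes, 6 rose, led by Malt1 (1.37, SE 0.14), and 7 fell, led by Themis (-1.21, SE 0.15), and the block gave 6 and 11. Without the replicate block, the shares over all genes tested were again 19.7% and 18.7%.

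Feedback regulators of cytokine signaling also had members that moved in opposite directions. Of 8 SOCS genes, 3 rose and 2 fell, beside 19.7% higher and 18.7% lower over all genes tested. With 1 library left out, 2 to 3 rose. Socs2 lay between 491 and 831 CPM in active and between 106 and 244 CPM in resting libraries (1.90, SE 0.14), and Cish rose by a log2 fold change of 0.67 (SE 0.07). Socs1 (-0.59, SE 0.08) and Socs3 (-0.59, SE 0.16) fell. Of 11 TGF-beta receptor and SMAD genes, 4 were higher and 3 lower, beside the same shares over all genes tested. The receptor gene Tgfbr1 rose by 0.71 (SE 0.09), and the inhibitor gene Smad7 lay between 48.3 and 84.8 CPM against 118 to 177 CPM (-1.08, SE 0.10).

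The metabolic lists leaned upward. Of 19 glycolysis genes, 13 rose and 4 fell, beside 19.7% higher and 18.7% lower over all genes tested. The first enzyme gene Hk2 lay between 3.46 and 8.71 CPM in active and between 1.12 and 5.32 CPM in resting libraries (1.40, SE 0.21). Pdk1, the gene of a pyruvate dehydrogenase kinase, fell by 1.81 (SE 0.12) and the glucose transporter gene Slc2a1 by 0.43 (SE 0.09). Of 20 cholesterol synthesis genes, 13 rose and 1 fell, by small amounts: Mvd rose most, by a log2 fold change of 0.81 (SE 0.09), and Mvk fell by 0.45 (SE 0.15).

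Survival genes of the BCL2 family divided into 9 higher and 4 lower of 17, beside 19.7% higher and 18.7% lower over all genes tested. The anti-apoptotic genes Bcl2 (-1.29, SE 0.09) and Mcl1 (-0.79, SE 0.07) fell. The anti-apoptotic Bcl2a1d (2.11, SE 0.17) and Bcl2a1a (2.23, SE 0.17) rose, although these near-identical copies share reads and their split is uncertain. Among the pro-apoptotic genes, Bik (2.33, SE 0.20) and Pmaip1, which encodes Noxa (1.85, SE 0.24), rose and Bcl2l11, which encodes Bim (-0.81, SE 0.10), and Bid (-1.02, SE 0.08) fell.

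Interferon-stimulated genes were lower in active cells for 14 of 25 and higher for 1, a call that was lost without active day 28 replicate 1 or replicate 2, among other libraries. Usp18, which dampens interferon receptor signaling, lay between 22.2 and 72.4 CPM in active and between 127 and 262 CPM in resting libraries (-2.31, SE 0.18). The antiviral genes Oas2 (-3.42, SE 0.45) and Ifit3 (-1.67, SE 0.23) fell with it, while Isg15 and Mx1 did not pass the test. Of 8 Gimap genes, GTPases of lymphocyte survival encoded side by side on chromosome 6, 7 fell and none rose. Gimap6 lay between 429 and 622 CPM against 1122 to 1353 CPM (-1.26, SE 0.06).

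The state difference was then read at each day, from 2 active against 2 resting libraries. Called genes numbered 2494 (12.0%) on day 0, 1389 (6.67%) on day 3, 2626 (12.6%) on day 7, 2446 (11.7%) on day 14 and 1444 (6.93%) on day 28. Genes higher in active cells made up 7.26%, 4.12%, 7.58%, 7.57% and 4.42% of those tested on the 5 days in turn, and genes lower in active cells 4.71%, 2.54%, 5.03%, 4.17% and 2.52%. On all 5 days 634 genes were higher (3.04%) and 346 lower (1.66%). Of the 30 genes with the largest differences, 29 were called on all 5 days, which their choice from the same libraries favors. Leaving out 1 library moved the day counts to between 1575 and 1902 on day 0, 665 and 942 on day 3, 1514 and 2771 on day 7, 1308 and 1892 on day 14 and 640 and 972 on day 28.

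**Figure D4:**
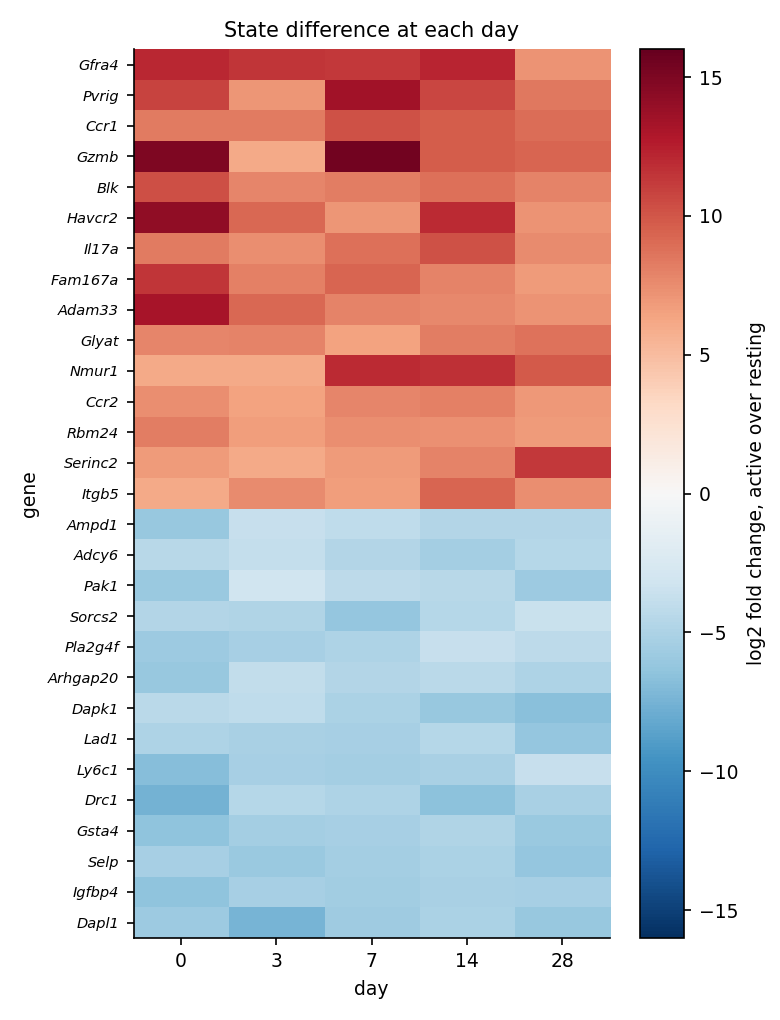
The color of each tile is the log2 fold change, active over resting, of 1 of 29 genes (rows) on 1 day (columns), from 2 active and 2 resting libraries. The 15 upper genes are positive and the 14 lower genes negative on all 5 days, and Gzmb varies most in size where its resting libraries hold no read pairs.

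Gene lists differed in how steady they were by day. The Th17 list had 15, 14, 15, 14 and 14 of 15 genes higher on days 0, 3, 7, 14 and 28. The cell cycle list had 27, 4, 26, 29 and 3 of 35 genes higher on those days, with medians of 1.51, 0.58, 1.68, 1.71 and 0.37. The naive list had between 12 and 20 of 26 genes lower on a day. No single gene passed the test of a change of the state difference with day. In that edgeR test 0 of 20834 genes were called (0.0%), 556 had an unadjusted p under 0.05, DESeq2's likelihood ratio test called 68, and edgeR without the count filter called 801. On simulated counts, 200 genes were changed in the active libraries of day 28 alone. There the edgeR test found 37% of 4-fold and 4% of 2-fold changes.

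The same contrast was made in GFP Treg cells, and the difference of the 2 state differences was tested. Foxp3 in the resting GFP Treg libraries was at 675 and 639 CPM and in the active ones at 739 and 815 CPM, against 43.5 to 79.1 CPM in the minusFoxp3 libraries. The state difference itself called 539 of 20934 genes in GFP Treg cells (2.57%), from 2 libraries against 2, of which 345 were higher (1.65%) and 194 lower (0.927%) in the active state. The 2 state differences differed in 1032 genes (4.93%), with the minusFoxp3 value above the GFP Treg value in 587 (2.8%) and below it in 445 (2.13%). Fitted signs were opposite in 605 of these, but the state difference was called in GFP Treg cells in only 142 of the 1032, and in both kinds of cell with opposite signs in 27. In 396 the fitted signs were the same with the larger size in minusFoxp3 cells, and in 31 the same with the larger size in GFP Treg cells. The gate gene Cd44 itself had a log2 fold change of 1.43 in minusFoxp3 and 0.50 in GFP Treg cells. Its difference of 0.92 was called (adjusted p 0.0102 in edgeR's interaction test), though not with every single GFP Treg library left out. Whether the sorts set the states equally far apart in both kinds of cell was not tested. With the replicate block, 1938 genes differed. The count fell to 481 without resting GFP Treg replicate 1, 628 without resting replicate 2, 479 without active replicate 1 and 601 without active replicate 2.

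Gzmb differed most. GFP Treg libraries had 15.7 and 28.4 CPM in the resting and 31.3 and 63.9 CPM in the active state, a log2 fold change of 1.11, while no resting minusFoxp3 library was above 1.17 CPM (difference 9.99). In this fit the log2 fold change of Gzmb in minusFoxp3 cells was 11.10, against 8.97 with day as a block. Havcr2 was at 2.05 and 3.25 CPM in resting and at 11.5 and 10.6 CPM in active GFP Treg libraries (2.06, difference 7.84). Pvrig was at 2.65 and 3.10 CPM against 21.1 and 19.98 CPM (difference 7.24). Nmur1 (7.79) and Ccr1 (7.16) also had the higher value in minusFoxp3 cells. Both resting minusFoxp3 libraries of day 7 held no read pairs of Gzmb, Pvrig or Nmur1, and both of day 0 none of Havcr2. The size and order of these differences therefore depend on the prior count of the fit. Arl11 (8.04) lost its call when any 1 of the 4 GFP Treg libraries was left out.

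In the other direction, Itgb8 fell with activation in minusFoxp3 cells but was at 24.2 and 20.01 CPM in resting and 78.7 and 62.9 CPM in active GFP Treg libraries (difference -4.46). Fam174b (difference -4.97) was at 11.8 and 6.57 CPM in resting against 25.0 and 19.0 CPM in active GFP Treg libraries, and Fcmr (-4.41), an Fc receptor for IgM, at 22.5 and 22.1 CPM against 53.0 and 51.8 CPM. Both were thus higher in active GFP Treg libraries and lower in active minusFoxp3 libraries, though for Fcmr the minusFoxp3 states overlapped. Its levels there were low, between 0 and 0.523 CPM in active and between 0.065 and 4.12 CPM in resting libraries. Fcmr lost its call with the untreated minusFoxp3 libraries alone. Pak1 (-4.85), Bnip5 (-4.30) and C78197 (-4.11) lost theirs when single GFP Treg libraries were left out.

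By list, 9 of 15 Th17 genes had a larger log2 fold change in minusFoxp3 than in GFP Treg cells by this test, with medians of 4.18 and 1.32. Il17a, at 0.113 and 0.0390 CPM in resting and 0.650 and 0.311 CPM in active GFP Treg libraries, had a difference of 5.84. At these levels its fold change in GFP Treg cells rests on few read pairs. For the cell cycle list 23 of 35 genes differed, all with the higher value in minusFoxp3 cells, and the medians were 1.19 and -0.43. That count was 7 without active GFP Treg replicate 1, 12 without resting replicate 1, 17 without active replicate 2 and 18 without resting replicate 2. Of 8 Gimap genes, 6 differed downward (medians -0.57 and 0.23), and 3 to 5 did without 1 GFP Treg library. The cholesterol list had 7 of 20 genes differing upward, 12 with the replicate block and 1 to 4 without 1 GFP Treg library.

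Treg signature genes differed in both directions, 6 upward and 5 downward of 24, beside 2.8% and 2.13% over all genes tested. Without 1 GFP Treg library, 4 to 5 differed upward and 4 to 5 downward. Ikzf2 had a log2 fold change of -1.99 in minusFoxp3 and 0.63 in GFP Treg cells (difference -2.62), Ikzf4, the gene of Eos, had -1.98 and 0.20 (named after its values were seen), and Lrrc32 had -2.23 and -0.13. Tigit rose in both, by 5.80 and 2.22 in the fit over both kinds of cells. Il10 rose by 4.36 and 3.08, and its difference of 1.29 did not pass the test (adjusted p 0.395). Among inhibitory and costimulatory receptors, Tnfrsf9 fell by 2.30 on the log2 scale in minusFoxp3 cells and had a log2 fold change of 1.31 in GFP Treg cells (difference -3.61).

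**Figure D5:**
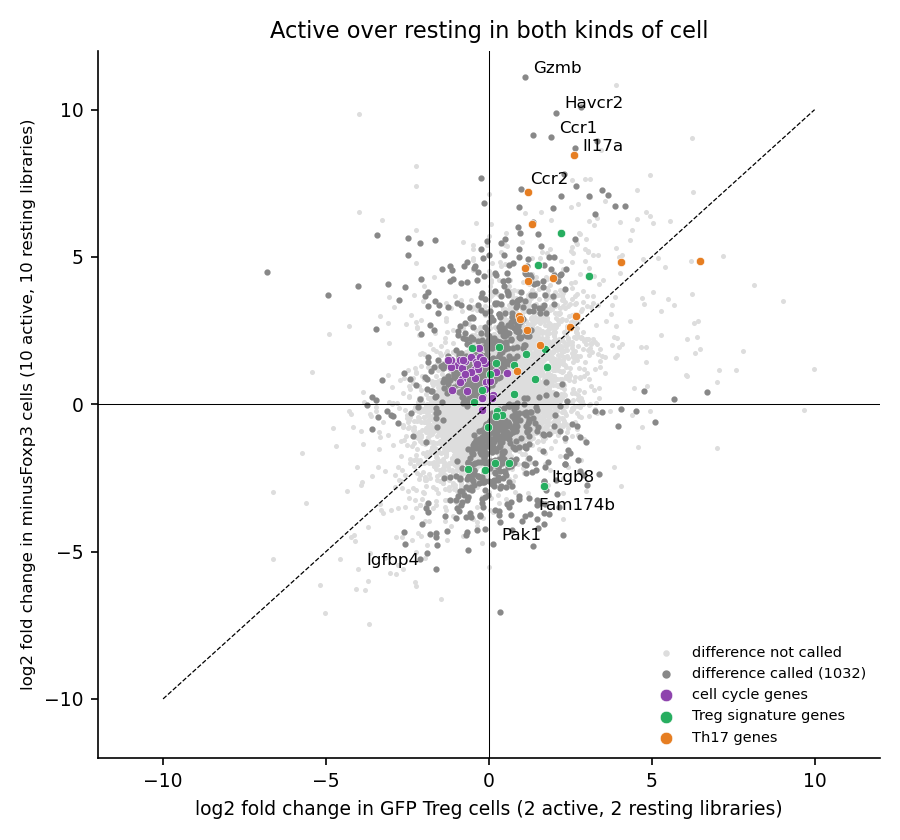
Each point is a gene, with its log2 fold change, active over resting, in GFP Treg cells (2 active and 2 resting libraries) on the x axis and in minusFoxp3 cells (10 and 10 libraries) on the y axis, and the dashed line marks equal values. Dark gray points are the 1032 genes whose difference was called, and all 35 cell cycle genes and 14 of 15 Th17 genes, drawn in color, lie above the line.

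Markers of other cell types moved with the states in part. Summed myeloid markers lay between 194 and 442 CPM in active and between 90.4 and 145 CPM in resting libraries, with 8 of 16 higher and none lower. Most of that sum was Cst3, and Siglech, a plasmacytoid dendritic cell gene, lay between 2.38 and 125 CPM against 0.0659 to 1.27 CPM. Its highest values were in the active libraries numbered 2 of days 0, 7, 14 and 28 and numbered 1 of day 3. Without the 5 active libraries above 20 CPM of Siglech, an alternative added after the data were seen, 6304 genes differed. There 15 of 15 Th17 and 31 of 35 cell cycle genes rose, and Il17a was again called higher. The active libraries kept still held between 2.38 and 5.26 CPM of Siglech, above every resting library, so its signal was not removed. Most libraries left out were numbered 2, so this choice also changed the mix of library numbers.

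Summed B cell markers, mostly Ighm, lay between 383 and 486 CPM in active and between 518 and 671 CPM in resting libraries, with 2 of 12 higher and 3 lower, beside 19.7% and 18.7% over all genes tested. The 2 became 1 with the replicate block, without the 5 active libraries high in Siglech, with the libraries of either number alone, and without active day 0, day 7 or day 28 replicate 2. Plasma cell markers summed to between 16.7 and 72.0 CPM in active and between 2.60 and 216 CPM in resting libraries, with 2 of 4 higher. The sums of CD8 T and NK cell markers were 9.37 to 34.3 CPM against 22.3 to 34.5 CPM, with 1 of 3 higher and 1 lower, and those of erythroid and platelet markers 1.42 to 7.34 CPM against 1.89 to 5.99 CPM, with none of 5 called. Of the gamma-delta T cell markers, those whose symbols matched summed to 48.2 to 200 CPM against 9.56 to 17.3 CPM, mostly from Blk, and the gamma constant genes of the list matched no symbol and are not in that sum. Under other symbols, and chosen after their values were seen, Trgc1 lay between 429 and 1412 CPM in active and between 29.6 and 70.4 CPM in resting libraries (log2 fold change 4.07), and Trgc2 between 18.1 and 40.3 CPM against 2.09 to 8.62 CPM (2.55). Scart2, a scavenger receptor gene known from IL-17-producing gamma-delta T cells, lay between 239 and 655 CPM against 4.69 to 45.6 CPM (4.85). Trdc, the delta constant gene, lay between 1.97 and 8.83 CPM against 9.31 to 16.7 CPM (-1.68, SE 0.21), and Sox13 was at most at 0.184 CPM. The study gated the sorted cells on CD4, CD3 and the T cell receptor beta chain, and states that bulk RNA samples were double sorted. The part of these other cell types in the state difference was not tested.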

How the data were processed

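RNA was sequenced in bulk from sorted cells (SMART-Seq v4 amplification from 1 to 2 ng of RNA). The deposited values are raw counts of read pairs per gene, which the authors made with featureCounts v2.0.3 over GENCODE vM30 gene names on GRCm39 per the file headers, without strand, requiring both mates to map and without a mapping quality or primary-alignment filter. The aligner is named differently in the submitters' notes and in the methods. Unlike the headers, the methods also give another featureCounts version, run with a primary-alignment and a mapping quality filter. Read pairs in exons shared by genes were left out, and 45 of the 170 named genes share exon bases with another gene.

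Library sizes were corrected by TMM, and each gene was tested by edgeR's quasi-likelihood F test (version 4.0.16, R 4.3.3, robust fit) with day as a block. Tested genes averaged at least 10 counts over the 20 libraries. A gene counts as called where its p-value, adjusted after Benjamini and Hochberg over all genes tested, was below 0.05. Standard errors were computed back from fold change and F value. Contrasts by day and against the 4 GFP Treg libraries used 1 mean per group, so 2 libraries shared the spread of the rest. DESeq2 1.42.0, no count filter, other library factors and left-out libraries were tried as alternatives. Each simulated data set held 200 changed genes, with no other effect of state or day. In these the tests recovered 65% of 2-fold and 87% of 4-fold changes between states, 21% and 55% at day 0, and 17% and 44% of differences from GFP Treg cells.

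Same-numbered active and resting libraries deviated together (r of 0.22, 0.16, 0.22, 0.11 and 0.15 on the 5 days and 0.20 in GFP Treg cells), so the number was also fitted as a block. For the contrasts by day this was a single term for the number. Elsewhere each number on each day, or in GFP Treg cells, had a block of its own. Neither labels nor methods say that a number marks a shared mouse. No pair of replicates agreed within sampling noise.

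The 30 gene lists, the members and the rule for naming genes were chosen with earlier results of these data known. The rule names Foxp3, the gate genes, Il17a, the 15 called genes per direction with the largest fold change, at least 100 mean counts and no overlap between states, up to 4 called genes per list and direction, and 6 per direction for the difference from GFP Treg cells. Genes in neither are said to be named after their values were seen. Some genes that the rule takes are not reported here.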

Additional observations from a re-analysis of the deposited data

Results flagged for a closer look

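Among 340 groups of 10 values examined (170 named genes in the active and in the resting libraries), 35 had a library that lay apart from the other 9 by Dixon's criterion, which chance alone flags in about 1 of 20 groups. Each value is given in CPM with the nearest library's value after it.

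Active day 7 replicate 1 was the highest active library for 8 genes: Tigit (291, next 176), Capg (2246, next 1800), Ifng (72.9, next 26.2), Il4 (73.2, next 45.7), Maf (1060, next 778), Hsd17b7 (40.1, next 25.8), Bcl2a1a (22.5, next 13.7) and Bcl2a1d (199, next 116). It was the lowest for Ptpn6 (166, next 226). Active day 3 replicate 1 was the lowest active library for Havcr2 (22.6, next 39.4), Glyat (3.99, next 12.6) and Rbm24 (22.5, next 47.9), and the highest for Mvk (17.65, next 11.01). Active day 14 replicate 1 was the highest for Serinc2 (12.01, next 6.87), Tox2 (206, next 162) and Cd160 (3.34, next 2.04). Active day 7 replicate 2 was the highest for the interferon-stimulated genes Usp18 (72.4, next 37.7) and Ifi206 (128, next 87.3). Dapl1 was highest in active day 14 replicate 2 (1.15, next 0.531) and Trdc in active day 28 replicate 1 (8.83, next 5.55).

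Among resting libraries, day 7 replicate 2 was the highest for Glyat (0.237, next 0.0879), Ifit3 (186, next 113), Ifi206 (361, next 257) and Siglech (1.27, next 0.673). Day 28 replicate 2 was the highest for Gfra4 (0.139, next 0), Fam167a (0.0697, next 0.0221) and Il22 (0.882, next 0.331). Day 3 replicate 1 was the highest for Pvrig (0.199, next 0.0876) and Gzmb (1.17, next 0.344), and day 3 replicate 2 for Cxcl10 (10.41, next 5.23) and Fcmr (4.12, next 1.72). Single genes were Ccr1 in day 0 replicate 1 (0.391, next 0.190), Itgb5 in day 0 replicate 2 (1.25, next 0.581), Bcl6 in day 14 replicate 2 (20.1, next 14.1) and Cd160 in day 14 replicate 1 (11.3, next 8.31). No cause was tested for any of these libraries.

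The state difference of 12 named genes differed between minusFoxp3 and GFP Treg cells by the interaction test of edgeR. The difference of the log2 fold changes was 9.99 for Gzmb, 8.04 for Arl11, 7.84 for Havcr2, 7.79 for Nmur1, 7.24 for Pvrig and 7.16 for Ccr1. It was -4.97 for Fam174b, -4.85 for Pak1, -4.46 for Itgb8, -4.41 for Fcmr, -4.30 for Bnip5 and -4.11 for C78197. These genes were chosen for the size of this difference.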

How the results depend on the processing

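The number of genes that differed between states was 7987 and lay between 7547 and 8356 with any 1 library left out. It was 5047 with the libraries numbered 1 alone and 7067 with those numbered 2 alone, both added after the data were seen, where fewer libraries were used. By day, using only the 4 libraries of that day gave 1312 genes on day 0 and 1275 on day 7, and no count filter gave 2245 on day 3 and 2340 on day 28. Leaving out 1 library moved the counts most to between 1575 (resting replicate 1) and 1902 on day 0, 665 (resting replicate 1) and 942 on day 3, 1514 (resting replicate 2) and 2771 on day 7, 1308 (resting replicate 1) and 1892 on day 14, and 640 (resting replicate 2) and 972 on day 28. Counts also moved by over 1.5 times without active replicate 2 (1608) on day 0, active replicate 2 (796) and resting replicate 2 (841) on day 3, resting replicate 1 (1671) on day 7, active replicate 1 (1534) and 2 (1625) on day 14, and active replicate 1 (657) and resting replicate 1 (789) on day 28. For the change with day, edgeR called 0 genes, 801 without the count filter, DESeq2 68, and between 0 and 1 with 1 library left out. For the difference from GFP Treg cells, 1032 genes became 1965 without the count filter (1690 at least 2-fold, against 837), 1645 with DESeq2, 580 with the untreated minusFoxp3 libraries alone (546 at least 2-fold), 1938 with the replicate block, and between 479 and 628 without 1 GFP Treg library (440 to 569 at least 2-fold). The replicate block moved no other of these gene counts by over 1.5 times. The causes were not tested. Of the values of named genes under the alternatives, 5452 kept their direction and side of the threshold, 87 lost the call, 9, all for Foxp3, gained it, and 0 reversed. Of the list counts, 1793 stayed within 1.5 times and 63 did not.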

Other observations

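The following genes were chosen after their values were seen. Asb2, a ubiquitin ligase subunit gene of Th cells, lay between 277 and 516 CPM against 2.47 to 6.57 CPM (6.73), and Cpe, the carboxypeptidase E gene, between 255 and 699 CPM against 5.83 to 37.1 CPM (5.05).

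Plekhh2 showed how 1 library can carry a fold change. It stood at 4603 CPM in resting day 0 replicate 2 and at 15.4 CPM in the next highest resting library, while active libraries lay between 0.0460 and 0.407 CPM. Its log2 fold change was -9.46 (SE 3.17, adjusted p 0.0274 in edgeR's quasi-likelihood test), and -1.58 (adjusted p 0.243) without that library. It was also not called without active day 0 replicate 1 (adjusted p 0.124), active day 0 replicate 2 (0.117) or resting day 7 replicate 1 (0.102), and over 31 alternatives the fold change lay between -13.05 and -0.90 and the adjusted p between 1.7e-249 without a count filter and 0.658.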
